A study of Mus musculus with 9 samples.

Results

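*Mustn1*, which encodes a small musculoskeletal protein, and the long intergenic noncoding RNA gene *4930404H11Rik* were the 2 genes examined, of 8329 genes in the expression table. Both were chosen by their values in these libraries, because their RNA was far lower in periosteal skeletal stem cells (P-SSCs) 3 days after bone transplantation than in P-SSCs at steady state. The size of that difference is therefore given as a description and is not tested. RNA sequencing covered 3 groups of 3 libraries: mesenchymal stem cells of the bone marrow (BM-MSCs) at day 0, P-SSCs at day 0, and graft P-SSCs at day 3 after transplantation. All mice were WT and of the C57BL/6J strain, and the study describes the transplanted femur as adult. The labels give no age. All 3 groups were sorted with the same gate, which kept CD51+CD200+ cells and removed cells carrying CD45, Ter119 or CD31. For the grafts, a whole donor femur was placed under the skin of a recipient mouse and its periosteum was collected afterwards, and the labels name no marker that separates donor cells from cells of the recipient. Each library held RNA of distinct mice, and RNA of 2 mice was combined in some, so p-values measure the spread between these small pools of sorted cells.

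*Mustn1* (musculoskeletal, embryonic nuclear protein 1, also called Mustang) encodes a small nuclear protein first described in regenerating bone. It is known from skeletal muscle, tendon, cartilage and the fracture callus, and has been tied to the differentiation of muscle and cartilage cells. The periosteum is the membrane on the outer face of bone, and its stem cells form much of the callus after a fracture. Transcription of *Mustn1* in muscle cells has been linked to AP-1, the family of Fos, Jun and Atf proteins that many kinds of stress induce. No role of *4930404H11Rik* is stated here, since its annotation gives none. A long intergenic noncoding RNA is a transcript without an annotated protein that lies outside protein-coding genes.

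*Mustn1* (ENSMUSG00000042485) lies on the plus strand of chromosome 14, from 30879200 to 30881610 in GRCm38. It has 1 annotated transcript of 1236 bases in 3 exons, and no other annotated gene overlaps it. Its coding sequence runs from 30879607 in exon 1 to 30881030 in exon 3 and has 82 codons before the stop codon. It is shown whole because it is the message that was so abundant in steady-state P-SSCs, with the start and stop codons in capitals.
Mustn1 coding sequence, chr14:30879607-30881030 with its introns removed, plus strand: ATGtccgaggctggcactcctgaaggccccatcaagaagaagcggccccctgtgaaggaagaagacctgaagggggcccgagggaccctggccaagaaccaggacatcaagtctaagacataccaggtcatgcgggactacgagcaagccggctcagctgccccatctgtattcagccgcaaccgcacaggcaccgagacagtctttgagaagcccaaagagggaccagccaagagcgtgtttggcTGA

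*4930404H11Rik* (ENSMUSG00000113630) lies on the plus strand of chromosome 12, from 71488285 to 71556133, a span of 67849 bases. GENCODE gives it 2 transcripts that begin 52322 bases apart. The shorter, 4930404H11Rik-201, has 767 bases in 3 exons, and the longer, 4930404H11Rik-202, has 1271 bases in 6. They end alike, since exons 2 and 3 of the shorter transcript are exons 5 and 6 of the longer, and they differ in every exon before these. The longest open reading frames had 81 and 146 codons, against 82 codons for the *Mustn1* protein, which says nothing about whether they are translated. 1 other annotated gene, *Gm40438*, overlaps its span on the same strand but shares no exon base with it. The first exons are shown because they are what tells the transcripts apart, and the deposited value joins both.
4930404H11Rik-201 first exon, chr12:71540607-71540756, plus strand: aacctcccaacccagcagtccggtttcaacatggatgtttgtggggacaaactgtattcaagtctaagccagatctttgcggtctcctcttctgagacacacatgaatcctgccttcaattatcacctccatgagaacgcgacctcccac
4930404H11Rik-202 first exon, chr12:71488285-71488426, plus strand: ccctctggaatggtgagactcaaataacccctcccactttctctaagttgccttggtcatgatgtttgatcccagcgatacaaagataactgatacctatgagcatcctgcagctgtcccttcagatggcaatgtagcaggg

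The bases just upstream of each gene are shown because both RNAs were low in the same libraries. They come from the RefSeq promoter set for GRCm38.p6, in which both genes were found. The sequence of *4930404H11Rik* is that before the shorter transcript. The sequence of *Mustn1* stops before the first base of its annotated transcript.
Mustn1 upstream sequence, chr14:30879007-30879199, plus strand: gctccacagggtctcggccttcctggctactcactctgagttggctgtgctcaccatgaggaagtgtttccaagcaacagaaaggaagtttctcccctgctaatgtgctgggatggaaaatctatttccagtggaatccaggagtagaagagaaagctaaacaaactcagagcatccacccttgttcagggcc
4930404H11Rik upstream sequence, chr12:71540357-71540606, plus strand: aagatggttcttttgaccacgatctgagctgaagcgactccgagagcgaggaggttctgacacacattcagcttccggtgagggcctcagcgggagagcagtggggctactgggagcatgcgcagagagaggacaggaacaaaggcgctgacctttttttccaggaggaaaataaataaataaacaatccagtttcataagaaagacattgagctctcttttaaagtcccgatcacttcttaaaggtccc
The *Mustn1* stretch of 193 bases had 50.3% G and C with 1 CpG, and the *4930404H11Rik* stretch of 250 bases had 48.4% with 9. Motifs were searched on both strands over 250 bases before and 50 bases after the RefSeq start. The letters were TGANTCA for AP-1, CANNTG for the E-box of myogenic factors and CATTCC for M-CAT, a muscle promoter element. The AP-1 and E-box letters were in neither window, while 7.79% and 72.3% of 32544 mouse promoters held them. The M-CAT letters, held by 14.6% of promoters, were found 1 time near *Mustn1*, at 30879281 to 30879286. This match lies 24 bases past the RefSeq start, inside exon 1 of the annotated transcript and outside the part printed. A match is a run of letters and not a site of binding.

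The unit of the table is FPKM, the fragments on a gene divided by its length and by the library's total, so levels of the 2 genes can be set side by side per length. The totals implied by the smallest steps of the values ranged from 16890241 to 21315438 fragments per library. For both genes the FPKM converted exactly to whole fragments, and intervals on these counts cover counting error only. In bulk RNA, fewer cells that express a gene and less RNA per cell cannot be told apart. P-SSC replicate 3 stood apart from its group, with Pearson's r of log2(FPKM + 1) of 0.858 to 0.870 across 1948 genes with the other P-SSC libraries and up to 0.839 with graft libraries. The folds of both genes between P-SSCs and grafts are given with and without it.

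In steady-state P-SSCs *Mustn1* was among the most abundant RNAs of the table. Its level was 307.5, 371.6 and 210.4 FPKM in replicates 1, 2 and 3, from 7508, 8158 and 4943 fragments. It ranked 60 of 2466, 51 of 2231 and 75 of 2421 genes above 0 in these libraries. Replicate 3 was the lowest of the group, but it was still well above every library of the other groups.

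In graft P-SSCs the same gene was at 14.9, 10.97 and 13.4 FPKM, from 326, 289 and 297 fragments. The graft libraries were close to each other, with a coefficient of variation of 15.2% against 27.4% in steady-state P-SSCs. The gene remained well detected there, at ranks 787 of 2771, 909 of 2829 and 790 of 2793. Steady-state P-SSCs had a mean of 296.5 ± 81.2 FPKM (SD, n = 3). The graft mean of 13.1 ± 1.99 FPKM (SD, n = 3) was 4.41% of it, a 22.7-fold difference. Single pairs of libraries gave 14.1-fold to 33.9-fold, and leaving out P-SSC replicate 3 gave 25.9-fold. Counting error was small beside this spread, since the ratio of pooled rates had a 95% interval of 21.3 to 24.4.

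In BM-MSCs *Mustn1* varied more than in any other group, with 6.71, 14.96 and 0.0443 FPKM in replicates 1, 2 and 3. These came from 140 fragments, 348 fragments and a single fragment, the last with an exact 95% Poisson interval of 0.0253 to 5.57. Replicate 2 was therefore at the level of the grafts, and replicate 3 was at the limit of detection. The mean was 7.24 ± 7.47 FPKM (SD, n = 3), and the coefficient of variation was 103%. Hemoglobin and myeloid RNA also varied in these libraries: *Hba-a2*, a hemoglobin gene of red cells, was at 748, 618 and 2200 FPKM (replicates 1, 2 and 3), so it was highest where *Mustn1* was lowest. *Lyz2*, the lysozyme gene of macrophages and neutrophils, was at 142.8, 539.5 and 608.4 FPKM, and *Mpo*, a granule enzyme of neutrophil precursors, was at 292 FPKM in replicate 1 and at 0 in the others. These genes did not share an order over the 3 libraries. The part of such RNA in the spread of *Mustn1* was not tested.

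*4930404H11Rik* had nearly all of its fragments in steady-state P-SSCs, at a lower level than *Mustn1* but with less spread. It had 18.4, 18.2 and 15.4 FPKM in replicates 1, 2 and 3, from 370, 329 and 299 fragments, a mean of 17.3 ± 1.64 FPKM (SD, n = 3). Its coefficient of variation was 9.48%. These values placed it at ranks 549, 535 and 727, in the upper part of the genes detected. Replicate 3 was again the lowest, though by little.

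Graft P-SSCs had 0.222, 0.0460 and 0.164 FPKM of *4930404H11Rik*, from 4 fragments, 1 fragment and 3 fragments. Exact 95% Poisson intervals were 1.09 to 10.2, 0.0253 to 5.57 and 0.619 to 8.77 fragments. The ranks of 2201 of 2771, 2652 of 2829 and 2306 of 2793 were in the lower part of the genes above 0. The graft mean of 0.144 ± 0.0896 FPKM (SD, n = 3) was 0.831% of the steady-state mean. The ratio of means was 120.4, and it ranged from 89.8 to 165.1 as each graft library was left out and was 127.0 without P-SSC replicate 3. With 998 fragments against 8 in all, the 95% counting interval of the ratio of pooled rates was 63.6 to 292.0. All 3 BM-MSC libraries had 0 fragments. A count of 0 was taken to allow up to 3 fragments, a one-sided limit that is narrower than the two-sided interval of 0 to 3.69. These 3 fragments are 0.174, 0.156 and 0.161 FPKM in BM-MSC replicates 1, 2 and 3. Of the graft libraries, replicate 1 was above these limits, replicate 2 was below them and replicate 3 lay between them.

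**Figure D1:**
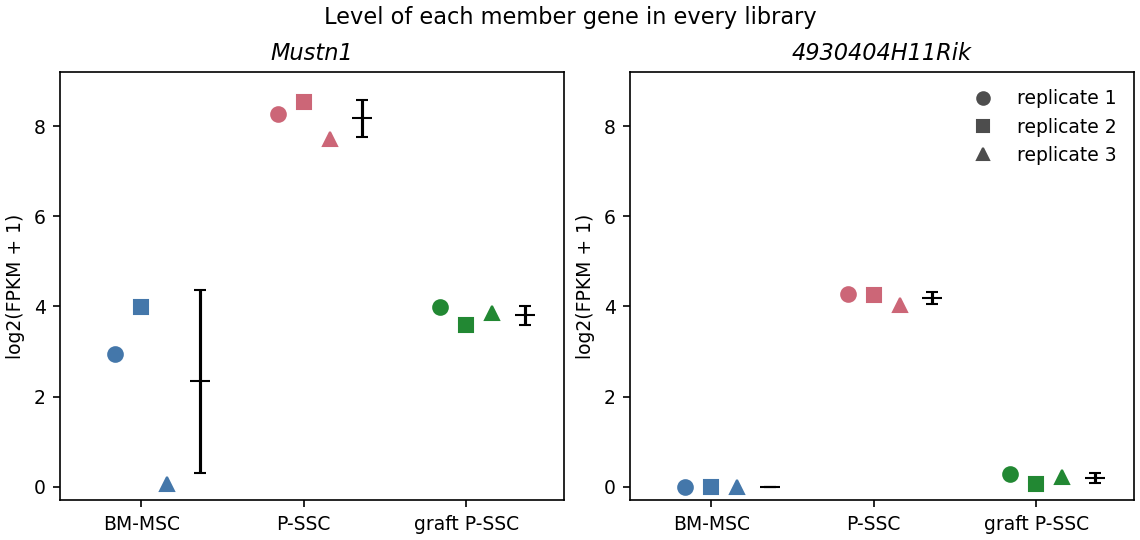
Level of each gene in the 9 libraries as log2(FPKM + 1), with the group on the horizontal axis, a marker for each replicate, and a bar for the mean and SD of the 3 log2 values. The 3 P-SSC libraries are above all others for both genes, *Mustn1* in BM-MSC replicate 3 is near 0, and *4930404H11Rik* is at or near 0 in all BM-MSC and graft libraries.

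The genes therefore shared the steady-state peak but not what was left after grafting. Per length, *Mustn1* was 16.7, 20.4 and 13.6 times the level of *4930404H11Rik* in P-SSC replicates 1, 2 and 3. In the graft libraries it was 67.2, 238.3 and 81.6 times that level, where the lower gene rests on 1 to 4 fragments. For these genes the graft libraries did not overlap the P-SSC libraries, as for 19% of the 1948 genes tested in that direction, and since both were chosen by this contrast the count carries no further weight.

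Among all genes tested, *Mustn1* had the second lowest and *4930404H11Rik* the third lowest fitted log2 fold change from steady-state to graft P-SSCs with the FPKM as deposited. The fit was limma on log2(FPKM + 1), for genes with at least 1 FPKM in at least 3 of 9 libraries. On this scale *Mustn1* was at -4.37 and *4930404H11Rik* at -4.00, while the median of all genes was 0.26, so relative to it they were at -4.63 and -4.26. *Gsta4*, a glutathione transferase that clears products of lipid oxidation, was the only gene below both at -4.89. Next above them were *Gpnmb*, a transmembrane glycoprotein, at -3.97, the flavin monooxygenase *Fmo2* at -3.88 and *Pcp4l1* at -3.86. Their levels in BM-MSCs differed: means in BM-MSCs, P-SSCs and grafts were 68.4, 108.6 and 2.40 FPKM for *Gsta4*, and 93.5, 30.9 and 0.313 FPKM for *Fmo2*. *Gpnmb* was closer to the genes examined, with 0.0220, 109.2 and 6.23 FPKM. *Pcp4l1* was at 2.74, 21.4 and 0.503 FPKM. The order among these genes depended on the scale: with median-of-ratios scaling *Gpnmb* (-4.25) was below *4930404H11Rik* (-4.12), and with quantile normalization *Fmo2* (-4.38) and *Gpnmb* (-4.36) were below it (-4.28). With a pseudocount of 0.1 *4930404H11Rik* (-6.23) was below *Mustn1* (-4.46). Without P-SSC replicate 3 *Fmo2* was at -2.88. In this comparison 22.6% of the genes tested were called higher and 11.5% lower at an adjusted p under 0.05, or 441 and 224 genes. Scaling the libraries by median of ratios gave 312 and 302, quantile normalization 312 and 355, and leaving out P-SSC replicate 3 637 and 255.

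Of the genes that the table classes as lincRNA, 799 in all, 24 passed the filter, and *4930404H11Rik* had the lowest fitted change among them in this fit. It entered the filter through its 3 P-SSC libraries alone, so it had to differ. Other genes of this class also passed only through the group where they were high, among them *Gm3924* through P-SSCs and *Gm30717* and *4833412C05Rik* through grafts, so no count of calls over the class is given. After *4930404H11Rik* came *AW112010* at -3.33, *Malat1* at -2.91 and *Gm46323* at -2.89. *AW112010* and *Malat1* were also present in BM-MSCs, with means of 179.3 and 40.2 FPKM. *Gm46323* was also much lower outside P-SSCs, with 0 FPKM in BM-MSCs, 13.3 in P-SSCs and 0.776 in grafts on average. The lincRNA genes named here were chosen after their values were seen.

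**Figure D2:**
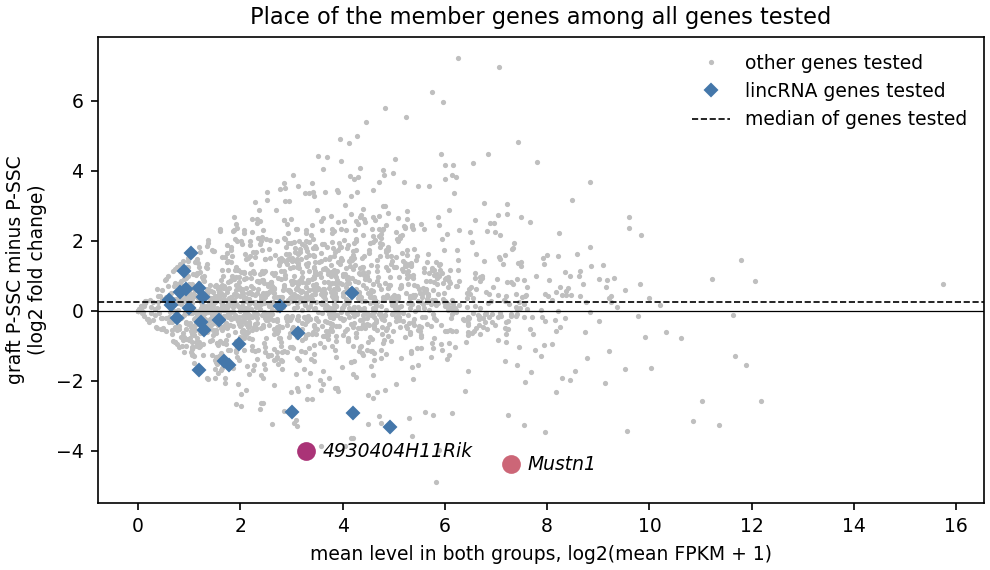
Log2 fold change of graft against steady-state P-SSCs (vertical axis) against the mean level in these groups as log2(mean FPKM + 1) (horizontal axis) for the 1948 genes tested, with lincRNA genes as diamonds, the genes examined as large circles and the median of 0.26 as a dashed line. *Mustn1* and *4930404H11Rik* lie near the lower edge at -4.37 and -4.00, and *Mustn1* has by far the higher level.

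At steady state, *Mustn1* was higher in P-SSCs than in BM-MSCs. The ratio of means was 41.0, and it was 87.8 without BM-MSC replicate 2 and 27.4 without BM-MSC replicate 3. With P-SSC libraries left out in turn it stayed between 35.8 and 46.9. The fitted log2 fold change was 5.84 (standard error 0.80, 95% interval 4.05 to 7.63, adjusted p = 0.000474 from limma), the fifth highest of 1948. All 3 P-SSC libraries were above all 3 BM-MSC libraries, as for 12.9% of the genes tested in that direction. Of all genes, 9.8% were called higher and 14.4% lower in P-SSCs. The exact permutation test gave *Mustn1* a two-sided p of 0.1, the smallest that groups of 3 allow. The comparison shares the P-SSC libraries with the contrast by which the gene was chosen, so a high P-SSC level was in part fixed by the choice.

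*4930404H11Rik* was also higher in P-SSCs than in BM-MSCs, without overlap, as for 12.9% of the genes tested in that direction. Its high P-SSC level was likewise in part fixed by the choice. Against 3 fragments per BM-MSC library, a mean of 0.164 FPKM, it was at least 105.7-fold higher. No p is given for it, since it passed the filter only through the group where it was high.

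Between graft P-SSCs and BM-MSCs no difference in *Mustn1* passed the test. The comparison shares the graft libraries with the contrast by which the gene was chosen, so a low graft level was in part fixed by the choice. The graft mean was 1.81 times the BM-MSC mean, the libraries overlapped, and the exact permutation test gave p = 0.4. The fitted log2 fold change was 1.47 (standard error 0.80, 95% interval -0.32 to 3.26, adjusted p = 0.164 from limma), which was 1.19 above the median of the genes tested. Without BM-MSC replicate 2, whose 14.96 FPKM was the highest of the 6 libraries, the log2 fold change was 2.30 with an adjusted p of 0.0403 from limma, and the ratio of means was 3.88. Without BM-MSC replicate 3 that ratio was 1.21. In this comparison 25.7% of genes were called higher and 16.2% lower in grafts, or 501 and 315 genes, with 388 and 364 by median-of-ratios scaling and 387 and 405 by quantile normalization. *4930404H11Rik* had 8 fragments in the grafts and 0 in BM-MSCs. Its graft libraries were thus all above its BM-MSC libraries, as for 40.5% of genes tested in that direction, but both groups were near the floor and no fold is given.

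Ordered by mean, *Mustn1* was therefore highest in P-SSCs, then in grafts and then in BM-MSCs, and the last 2 did not differ beyond their spread. For *4930404H11Rik* the order was the same, but grafts and BM-MSCs were both near the floor and no difference between them is read.

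The genes whose log2(FPKM + 1) followed each gene most closely over the 9 libraries were named by Pearson's r among 1947 genes. These r describe 3 groups of 3 libraries that share their preparation, and any gene with a peak in steady-state P-SSCs scores high. For *Mustn1* they were *Ecm1* (r = 0.957), *Dynlrb1* (0.944), *Serpinf1* (0.944), *Sfxn3* (0.943) and *Gml* (0.942). *Ecm1* encodes a secreted matrix glycoprotein and was at 1097, 7997 and 1328 FPKM on average in BM-MSCs, P-SSCs and grafts. *Serpinf1* encodes the secreted inhibitor of vessel growth PEDF and was at 1673, 5646 and 1908 FPKM. *Sfxn3*, a mitochondrial carrier of amino acids, was at 18.7, 75.0 and 29.3 FPKM, and the dynein light chain gene *Dynlrb1* was at 218, 354 and 255 FPKM. *Gml*, which encodes a predicted membrane-anchored protein, was low at 0.178, 3.30 and 0.877 FPKM. Their P-SSC peaks were thus smaller in proportion than that of *Mustn1*.

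For *4930404H11Rik* the closest gene was *Mrln* (r = 0.990), which encodes myoregulin, a small peptide that restrains the calcium pump of skeletal muscle. *Mrln* had 6.05, 7.17 and 3.55 FPKM in P-SSC replicates 1, 2 and 3 and 0 in all BM-MSC and graft libraries. It was followed by *Ecm1* (0.982), the secreted C1q-related factor gene *C1qtnf1* (0.981), the secreted phospholipase gene *Pla2g2e* (0.980) and *Faim2* (0.979), an inhibitor of Fas-induced cell death. Mean levels in BM-MSCs, P-SSCs and grafts were 34.3, 268 and 32.9 FPKM for *C1qtnf1*. They were 0, 4.27 and 0.236 FPKM for *Pla2g2e* and 0, 3.13 and 0.0372 FPKM for *Faim2*. The r between *Mustn1* and *4930404H11Rik* was 0.913, so neither was among the 5 genes closest to the other.

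**Figure D3:**
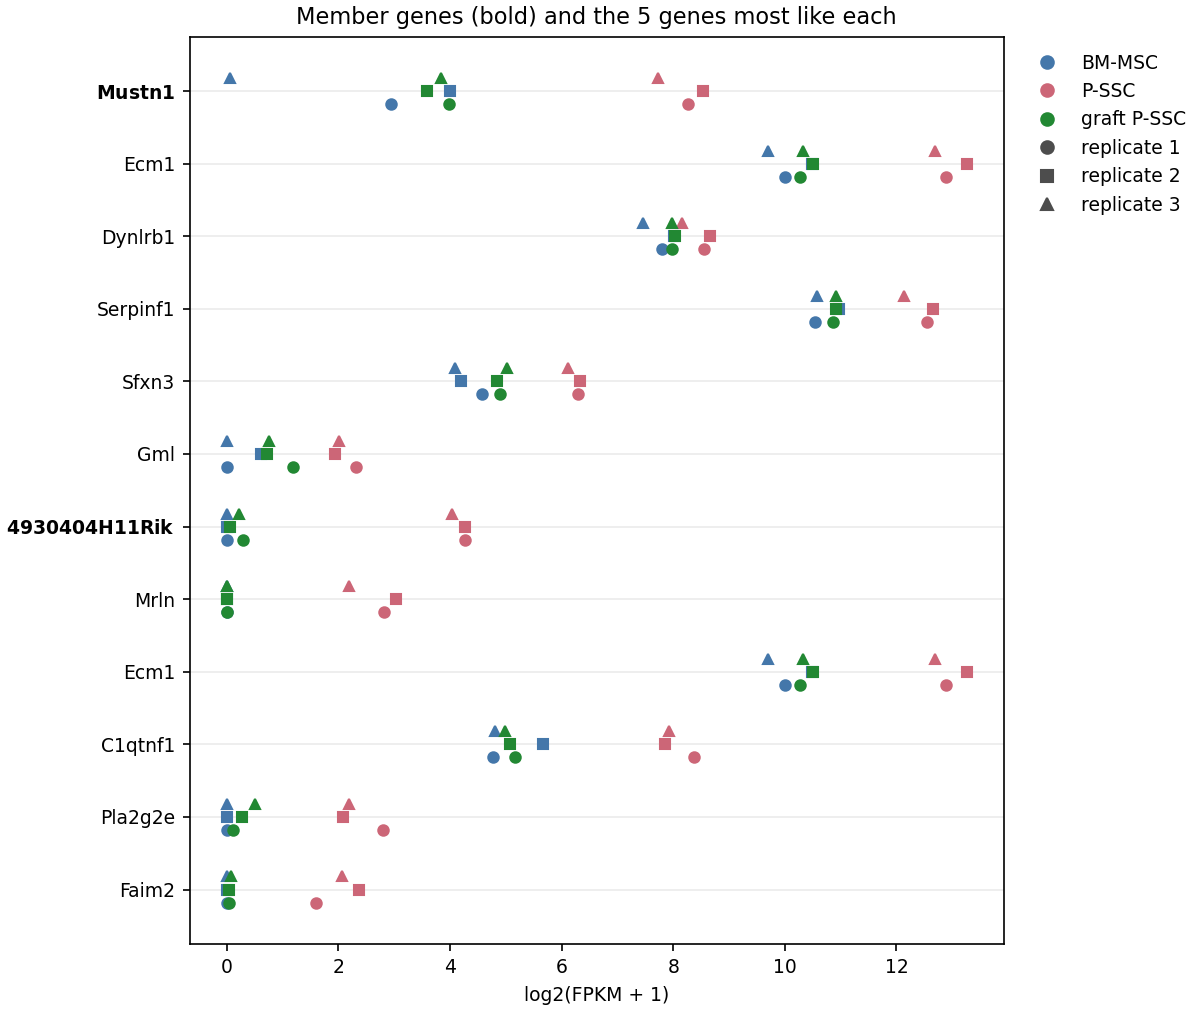
Levels as log2(FPKM + 1) (horizontal axis) of the genes examined (bold) and the 5 genes closest to each by Pearson's r, with colours for groups and shapes for replicates. The P-SSC libraries lie to the right in every row, and *Mrln*, *Pla2g2e* and *Faim2*, like *4930404H11Rik*, are at or near 0 elsewhere.

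Of 42 genes annotated within 500000 bases of *Mustn1* on chromosome 14, 8 were in the table and 4 passed the filter, and of these 4 none was called between P-SSCs and BM-MSCs, where 9.8% of all genes tested were called higher and 14.4% lower. In grafts 1 of the 4 was called higher than in P-SSCs, near the 22.6% of all genes, so the counts set these neighbours apart in no way. *Tmem110*, which encodes a calcium channel regulator of the endoplasmic reticulum, ends 1990 bases upstream on the same strand. It had 2.20, 1.95 and 54.8 FPKM in P-SSC replicates 1, 2 and 3, 25.3, 20.7 and 10.6 in grafts, and 3.57, 6.07 and 0.795 in BM-MSCs. Where *Mustn1* was highest, in P-SSC replicates 1 and 2, its neighbour was thus low. Without P-SSC replicate 3, *Tmem110* was 2.61 higher in grafts than in P-SSCs on the log2 scale (adjusted p = 0.0038 from limma), and with it 1.21 (adjusted p = 0.405). *Capn7*, a calpain protease gene, was the one called higher in grafts, by 1.79 (adjusted p = 0.0181 from limma), or 2.40 without P-SSC replicate 3. Its levels were 1.48, 1.26 and 7.29 FPKM in P-SSCs and 10.4, 13.4 and 10.9 in grafts, so P-SSC replicate 3 was again the one nearest to the grafts. *Tkt*, the transketolase of the pentose phosphate pathway, was between 95.9 and 177 FPKM in all libraries. *Tnnc1*, the troponin C of slow and cardiac muscle, did not pass the filter. It was at 1.78, 3.61 and 0 FPKM in P-SSCs, at 0.863, 0.645 and 0.850 in grafts and at 0 in BM-MSCs. *Cacna1d*, *Sema3g* and *Gm15667* were at or below 0.178 FPKM.

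Near *4930404H11Rik*, 3 of 20 annotated genes were in the table and 2 passed the filter. The noncoding gene *3110056K07Rik* was lower in P-SSCs than in BM-MSCs, with a log2 difference of -1.57 (limma, adjusted p = 0.00128), with 0.995 and 4.93 FPKM on average. It had 0.918 FPKM in grafts. *Arid4a*, which encodes a chromatin protein that binds the retinoblastoma protein, was between 2.10 and 7.22 FPKM and was called in no comparison. *Gm19045* was at 0 throughout. Neither gene tested was called between grafts and P-SSCs, as for most of all genes tested.

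**Figure D4:**
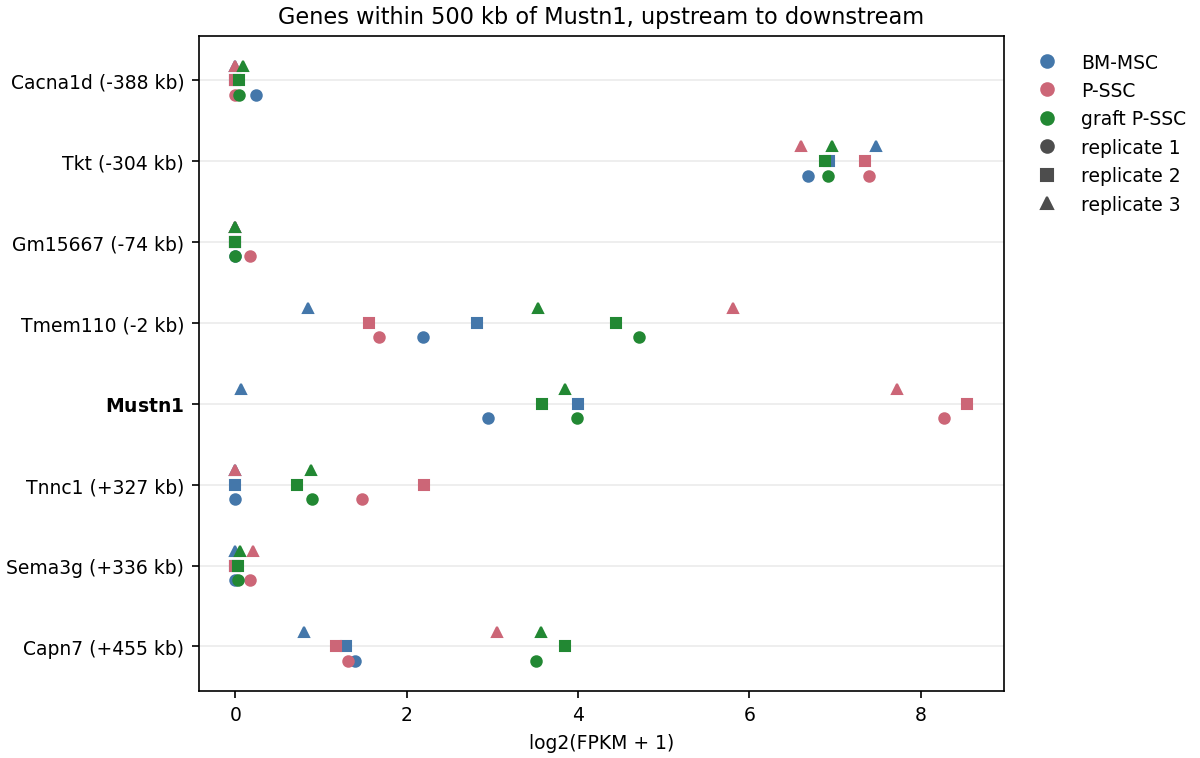
Levels as log2(FPKM + 1) (horizontal axis) of the named genes within 500000 bases of *Mustn1*, ordered from upstream to downstream with the distance to *Mustn1* in kb, with colours for groups and shapes for replicates. *Tmem110* and *Capn7* are highest in grafts and in P-SSC replicate 3, in contrast to *Mustn1*, which is highest in all P-SSC libraries.

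Of the AP-1 family, 2 of 14 genes were analysed here, and both were called higher in P-SSCs than in BM-MSCs, as were 9.8% of all genes tested, *Atf3* by 4.61 on the log2 scale (adjusted p = 1.76e-05 from limma) and *Fosl2* by 1.58 (adjusted p = 0.00379). *Atf3*, a stress-induced repressor, was at 577, 611 and 271 FPKM in P-SSC replicates 1, 2 and 3, at 90.1, 90.8 and 88.8 in grafts and at 10.7, 18.1 and 28.6 in BM-MSCs. Like *Mustn1*, it was lowest in replicate 3 among the P-SSCs and lower in grafts, where it fell by 2.33 on the log2 scale (adjusted p = 0.0012 from limma). Among the BM-MSCs the order was unlike, since *Atf3* was highest in replicate 3, where *Mustn1* was lowest. A link between the levels of these genes was not tested. *Fosl2*, a Fos family member active in bone and cartilage, was at 8.76, 6.07 and 5.44 FPKM in P-SSCs, 8.98, 8.27 and 9.84 in grafts, and 2.08, 1.73 and 0.982 in BM-MSCs. It was not called between grafts and P-SSCs (0.39, adjusted p = 0.362 from limma). With 2 genes the list shows no common direction in that comparison. None of 20 cartilage genes was analysed here.

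Since *Mustn1* is abundant in skeletal muscle, which lies on the periosteum, markers of other cells were followed beside it. Of 26 skeletal muscle genes, 3 were in the table and 1 passed the filter. *Myl1*, a light chain of fast muscle myosin, was at 1.77, 6.47 and 2.76 FPKM in P-SSC replicates 1, 2 and 3, at 0.329, 0 and 0.405 in grafts, and at 1.72, 3.48 and 0 in BM-MSCs. It fell by 1.79 in grafts on the log2 scale (adjusted p = 0.0306 from limma), and in both groups of resting cells it was highest in the replicate where *Mustn1* was highest. The rest of the P-SSC order differed, since *Myl1* was lowest in replicate 1 and *Mustn1* in replicate 3. The titin gene *Ttn* was at or below 0.0727 FPKM and the slow myosin gene *Myh7* at or below 0.208. The summed level of the 3 genes was 1.77 to 6.51 FPKM in P-SSCs, 0.00249 to 0.506 in grafts and 0.0553 to 3.48 in BM-MSCs. *Mrln* and *Tnnc1*, which are also muscle genes, are given above. The part of muscle RNA in the *Mustn1* values was not tested.

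Of 11 tendon and ligament genes, 2 were in the table, and their sum was 265 to 505.5 FPKM in P-SSCs, highest in replicate 3, 122 to 157 in grafts and 0.038 to 0.0651 in BM-MSCs. *Cilp*, a matrix protein of cartilage and tendon, was at 352, 263 and 381 FPKM in P-SSCs and 122, 125 and 157 in grafts, and it fell by 1.29 on the log2 scale (adjusted p = 0.000974 from limma). *Cilp2*, its paralog, was at 2.29, 2.26 and 124.2 FPKM in P-SSCs, so that replicate 3 carried it almost alone. *Cilp2* passed the filter only through these libraries, so no p is given for it. Between P-SSCs and BM-MSCs *Cilp* was called higher. Of 15 smooth muscle and pericyte genes, 2 were in the table and 1 passed. Their sum was 1.44 to 2.39 FPKM in P-SSCs, 1.004 to 2.08 in grafts and 7.13 to 8.11 in BM-MSCs. It came mostly from the mural cell receptor gene *Notch3*, except in P-SSC replicate 1, where *Pln* was at 0.801 FPKM and *Notch3* at 0.642. *Notch3* was called lower in P-SSCs than in BM-MSCs (-1.93, adjusted p = 0.00163 from limma). Of 18 blood genes, 6 were in the table, with sums of 16.6 to 79.4 FPKM in P-SSCs, 35.3 to 92.0 in grafts and 1162 to 2817 in BM-MSCs. No count of calls is given for them, since some passed the filter only because of the group where they were high. Among these was *Csf1r*, a receptor of macrophages, at 0.248, 0.407 and 0.835 FPKM in P-SSCs, 6.31, 5.93 and 5.57 in grafts and 2.68, 0.223 and 0 in BM-MSCs. *Ptprc*, which encodes the CD45 of the gate, was at 0 in all P-SSC libraries, at 0.311, 0.113 and 0.134 FPKM in grafts and at 0.326, 1.35 and 1.19 in BM-MSCs. *Lyz2* was between 14.2 and 71.9 FPKM in P-SSCs and between 25.5 and 84.0 in grafts. *Hba-a2* was at 2.13, 7.09 and 20.2 FPKM in P-SSCs and 3.67, 2.78 and 0.531 in grafts. *Csf1r* and *Ptprc* were named after their values were seen. Their part in the values of the genes examined was not tested. None of 8 endothelial genes was analysed here. Of 13 genes of the sorted stromal cells, *Postn*, the matrix protein that marks periosteum, was the 1 in the table, and it was present in all groups with means of 105.3, 439 and 830.3 FPKM in BM-MSCs, P-SSCs and grafts.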

How the data were processed

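Per the labels and the study's methods, mRNA of 9 libraries was selected with poly-T beads and reads were mapped to GRCm38 with STAR 2.6.1d. The submitters' processing notes also name CASAVA, fastp and featureCounts 1.5.0-p3, and use of strand is not given in the sources used here. The deposited values are FPKM, which the authors scaled by gene length and library total. Here, log2(FPKM + 1) of the 1948 genes with at least 1 FPKM in at least 3 of 9 libraries was fitted with limma 3.58.1 (R 4.3.3, all groups in 1 fit, eBayes with trend), with Benjamini-Hochberg adjustment over all genes and calls at an adjusted p under 0.05. The values are not counts, so no count model was used. Fragments were FPKM times length and library total, the total being set by the smallest step, and 99.8% of 4837 values of single-transcript genes were then whole (tolerance 0.02). For *4930404H11Rik*, which has 2 transcripts, the deposited length is 1421 bases. The length used here was the mean of its transcripts, 1019 bases, with which its values were whole. With such means, 74.7% of 2653 values of genes with 2 transcripts were whole.

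The genes examined and the lists were chosen with earlier results of these data known. Named besides them are the 5 genes with the highest r, genes within 500000 bases, up to 3 genes per list by mean FPKM, and the genes next to them in the order of change. A gene near *Mustn1* is not reported here. Procedures were tested on simulated data. Alternatives changed the pseudocount, filter, scaling, trend, libraries and replicate block, and those for other named genes were chosen after seeing the data. Annotation came from GENCODE M21 and promoters from RefSeq.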

Additional observations from a re-analysis of the deposited data

How the results depend on the processing

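Under 16 other settings the higher *Mustn1* level in P-SSCs than in BM-MSCs was called each time, with log2 fold changes of 4.71 to 6.88 and adjusted p-values of 5.47e-05 to 0.00606 from limma. These settings reuse the P-SSC libraries by which the gene was chosen, so a high P-SSC level was in part fixed by the choice each time. Between grafts and BM-MSCs *Mustn1* was called in 1 of 16 settings, without BM-MSC replicate 2. With libraries left out in turn it ranged from 0.34 to 2.30, and over all settings the adjusted p was 0.0403 to 0.467. Between grafts and P-SSCs, where it is a description, quantile normalization gave -4.77 against -4.37. The fitted values of *4930404H11Rik* moved with the scale because it is at or near 0 in 6 libraries, so they are not bounds. With a pseudocount of 0.1 they were 7.44 for P-SSCs against BM-MSCs, 1.21 for grafts against BM-MSCs and -6.23 for grafts against P-SSCs, in place of 4.19, 0.19 and -4.00. With quantile normalization they were 4.29, 0.014 and -4.28, and with median-of-ratios scaling the first was also 4.29. No direction of either gene reversed.

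The replicate numbers share only a label, since same-numbered libraries deviated together with a mean r of 0.023, -0.006 and -0.26 in the 3 comparisons. With the replicate number as a block, 441, 755 and 621 genes were called in place of 472, 816 and 665, for P-SSCs against BM-MSCs, grafts against BM-MSCs and grafts against P-SSCs. *Mustn1* then had adjusted p-values of 0.000685 and 0.123 in the first and second, and no call of it changed. The total number of called genes stayed within 1.5 times the value given in all settings. By direction, genes higher in grafts than in BM-MSCs were 319 and 321 without graft P-SSC replicates 1 and 2, against 501. Genes lower in grafts than in P-SSCs were 149 without graft P-SSC replicate 1 and 355 with quantile normalization, against 224. The number of libraries, 3 per group, limits the precision of every mean, and counts of 4 fragments or fewer bound the graft level of *4930404H11Rik* only loosely.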
